A study of Mus musculus with 15 samples.

Results

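The mitochondrial ribosome is the particle inside mitochondria that translates the few messages of the mitochondrial genome, and its proteins are encoded in the nucleus. The genes described here are those whose symbols begin with Mrpl, for the large subunit, or Mrps, for the small subunit, followed by a number, with an expected count of at least 10 in at least 3 libraries. Of 20325 genes in the deposited tables, 76 had such a symbol, and all 76 met the count rule and entered the tests, 47 of the large and 29 of the small subunit. The lowest single value was an expected count of 63, for Mrps36. Subunits follow the symbols here, although the proteins of Mrps18a and Mrps30 are now placed in the large subunit and that of Mrps36 in the α-ketoglutarate dehydrogenase complex.

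Livers came from 15 male C57BL/6J mice aged 19 weeks, 3 in each of 5 groups, and polyadenylated RNA was sequenced with stranded libraries. Germ-free (GF) mice carried no microbiota, conventionally raised (ConvR) mice acquired one from birth, and conventionalized (ConvD) mice were GF for 15 weeks and then took up, from 1 gavage of a ConvR chow donor's cecal contents, a microbiota that they carried for 4 weeks. Diets began 3 weeks after birth. Chow gave 23.7% of energy from fat, 53.2% from carbohydrate and 23.1% from protein, and the diet rich in fat and sucrose, HF/HS, gave 44.6%, 40.6% and 14.8%. The groups were GF on chow, ConvR on chow, ConvD on chow, GF on HF/HS and ConvR on HF/HS. Both diets were irradiated and autoclaved. Mice were housed by colonization status and diet, so that isolator or cage and group cannot be told apart. The comparisons asked how the microbiota and the diet, separately and together, alter hepatic gene expression.

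Mitochondrial ribosomes descend from bacterial ones, and many of their proteins belong to families shared with bacteria, while others are found only in mitochondria. The proteins are made in the cytosol and imported, and they assemble with ribosomal RNA transcribed from the mitochondrial genome. The products of mitochondrial translation are core subunits of the respiratory chain and of ATP synthase, on which hepatocytes, rich in mitochondria, depend for energy. Several members, among them Mrps16, Mrps22, Mrps34 and Mrpl44, are mutated in inherited human mitochondrial disease.

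Libraries held totals of 14737578 to 21794811 expected counts, and replicates correlated with r from 0.968 to 0.992 over genes. Hepatocyte markers were all detected (8 of 8), with summed levels of 53715 to 129245 CPM (counts relative to the library total, with totals scaled between libraries by TMM, which equalizes most genes) over the 15 livers. Of 5 exocrine pancreas markers, Prss1 was at 0 in all 15 livers, Cpa1, Pnlip and Amy2a5 were at 0 in 13 or 14, and Cela1 had 8.46 to 42.3 CPM. ConvR chow mice 1 and 2 stood apart, with Saa2, an acute phase gene, at 9884 and 12789 CPM against 695 CPM in ConvR chow mouse 3 and at most 53.8 CPM elsewhere. In the ConvR chow group summed neutrophil markers (3 of 7 tested) were 5.07 to 49.9 CPM, against 0.93 to 6.81 elsewhere, and hepatocyte markers 53715 to 90496 CPM. The part of either in the results was not tested. GF chow mouse 1 also differed from its group in several members, as given below. Member counts are given without these 3 libraries where they change.

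In TPM, the deposited measure that divides by gene length as well as by depth, the members' means over the 15 livers had a median of 35.7, with 37.2 for the large and 30.7 for the small subunit, against 7.84 for all tested genes. Most were of middling abundance: 68 of 76 lay between 10 and 100 TPM, 3 above and 5 below. Mrpl12, the stalk protein that contacts translation factors, was the most abundant at 160 TPM, followed by Mrpl52 at 106, Mrps21 at 104, Mrpl30 at 95.0 and Mrpl42 at 87.7. The least abundant were Mrpl35 at 9.34, Mrpl17 at 9.22, Mrpl41 at 8.13, Mrpl19 at 4.04 and Mrps25 at 2.17 TPM. Genes whose proteins mostly meet in a single particle thus spanned a 73.8-fold range of message level.

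Members were short, with a median gene length of 1036 bases, from 407 to 6712, against 2798.1 for all tested genes. Mean TPM fell with length across the 76 members (Spearman rho −0.668), whereas mean CPM, which is not divided by length, rose weakly with it (rho 0.214). TPM itself contains the length, and the genes are not independent replicates. The comparisons below therefore set the members beside 4841 tested genes of like length, from 607.5 to 2427 bases. Within that window the genes were not matched to the members in their distribution of length. Of the 4841, 1698 lay between 777 and 1519 bases, the members' 25th and 75th length percentiles.

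**Figure D1:**
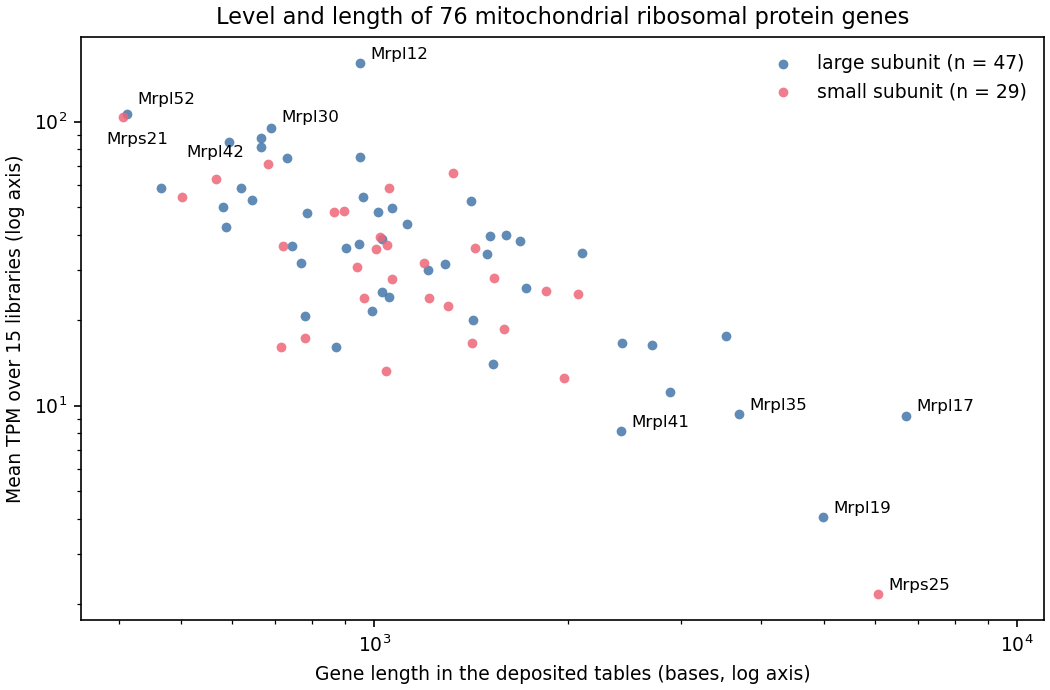
Mean TPM over the 15 livers (vertical, log scale) against gene length in bases (horizontal, log scale) for the 76 members, 47 of the large and 29 of the small subunit. Mrpl12 lies highest at 160 TPM and Mrps25 lowest at 2.17, and longer members tend to lie lower.

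Promoter sequence is shown for 6 members, all described below. In the part printed, 4 hold short motifs that are frequent near the starts of members and 2 do not. Sequences were taken from RefSeq windows of the build GRCm38.p6, from 250 bases before to 50 after each gene's start, which matched 67 of the 76 members. The expression tables used the earlier build mm9. Motifs were searched on both strands as CCGGAAG, bound by ETS factors such as GABPA, GCGCA and GCGC with any base between them, bound by NRF1, and AAGATGGCG, bound by YY1. These 3 factors are known regulators of nuclear genes for mitochondrial proteins. Printed below are the 160 bases before the start of 6 members, on the gene's own strand, 5′ to 3′, with a motif match in capitals. Mrpl52, Mrps26 and Mrps27 have an ETS match on the opposite strand, at 47 to 41, 14 to 8 and 48 to 42 bases before the start. Mrpl12 has an NRF1 match on the opposite strand at 81 to 72 bases before it, and Mrps24 and Mrpl20, described with them below, have no match in the part printed. Mrps24 does have a YY1 match in its window, about 40 bases after the start. The windows lie at chr14:54426749-54426908 (plus strand), chr2:130563597-130563756 (plus), chr13:99344626-99344785 (plus), chr11:120484477-120484636 (plus), chr11:5707702-5707861 (minus) and chr4:155802718-155802877 (plus), in the order printed.
Mrpl52: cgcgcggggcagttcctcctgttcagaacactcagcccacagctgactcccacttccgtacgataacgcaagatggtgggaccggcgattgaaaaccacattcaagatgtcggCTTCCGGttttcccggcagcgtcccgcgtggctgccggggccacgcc
Mrps26: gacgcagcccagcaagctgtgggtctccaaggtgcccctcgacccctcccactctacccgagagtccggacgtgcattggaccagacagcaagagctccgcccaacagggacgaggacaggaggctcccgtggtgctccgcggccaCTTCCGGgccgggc
Mrps27: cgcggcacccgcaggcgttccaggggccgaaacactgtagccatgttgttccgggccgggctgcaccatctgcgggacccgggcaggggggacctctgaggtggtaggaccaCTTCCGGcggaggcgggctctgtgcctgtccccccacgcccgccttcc
Mrpl12: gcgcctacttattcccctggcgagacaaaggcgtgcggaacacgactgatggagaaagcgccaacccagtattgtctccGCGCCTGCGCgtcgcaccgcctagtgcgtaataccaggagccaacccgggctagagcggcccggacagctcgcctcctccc
Mrps24: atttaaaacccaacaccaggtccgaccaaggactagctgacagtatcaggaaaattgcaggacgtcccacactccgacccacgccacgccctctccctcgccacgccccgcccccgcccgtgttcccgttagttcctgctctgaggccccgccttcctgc
Mrpl20: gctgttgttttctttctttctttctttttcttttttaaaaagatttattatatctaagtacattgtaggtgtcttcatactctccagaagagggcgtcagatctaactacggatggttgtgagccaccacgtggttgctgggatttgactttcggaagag

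The ETS motif stood in 24 of 67 member windows (35.8%), against 9.93% of all 27025 genes with windows and 19.0% of the other 8828 tested genes. NRF1 matches were found in 12 (17.9%, against 5.19% and 11.2%) and YY1 matches in 8 (11.9%, against 1.64% and 3.40%). At least 1 of these 3 motifs was present in 39 members (58.2%), against 15.1% of all genes and 29.9% of the other tested genes, and 5 members held 2 or more. ETS matches lay close to the start, 23 of 28 within 60 bases of it, as did 10 of 18 NRF1 and 7 of 8 YY1 matches. The window itself ends 50 bases after the start, and positions in other genes were not counted. The GC-rich SP1 motif GGGCGG was in 49.3% of members (38.2% and 67.4%), CCAAT in 40.3% (41.1% and 43.3%) and TATAAA in 7.46% (15.7% and 9.46%). Of the members called changed in any comparison below, 12 of 22 with a window held the ETS motif, and of those never called 12 of 45. For the other motifs these counts were 5 and 7 for NRF1, 2 and 6 for YY1, 10 and 23 for SP1, 8 and 19 for CCAAT, and 2 and 3 for TATAAA. A match is a run of letters, and binding was not measured.

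Across the 5 groups, most members were most abundant in the GF chow livers. On that scale, 52 of 76 members (68.4%) had their highest group mean in GF chow, 12 in ConvR chow, 7 in ConvD chow, 4 in GF HF/HS and 1 in ConvR HF/HS. GF chow was highest for 34.2% of genes of like length, for 40.4% of 1199 genes of like length and level, and for 25% of all tested genes. The lowest group mean was in ConvR HF/HS for 35 members (46.1%) and in GF HF/HS for 23. Members' CPM summed to 2063 ± 98.9 (SD, n = 3) in GF chow, 1892 ± 135 in ConvR chow, 1810 ± 23.2 in ConvD chow, 1771 ± 16.4 in GF HF/HS and 1727 ± 45.7 in ConvR HF/HS. In bulk liver, fewer cells of a type and less RNA per cell cannot be told apart.

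The excess in GF chow was smaller under other treatments of length, scale and libraries. With each library's trend of expression on gene length removed, GF chow was highest for 24 members, ConvR chow for 18, ConvD for 14, GF HF/HS for 11 and ConvR HF/HS for 9. GF chow was then highest for 31.6% of members, 21.1% of genes of like length, 24.1% of genes of like length and level and 21.3% of all tested genes. For ConvR chow these shares were 23.7%, 27.7%, 27.9% and 26.7%. Without GF chow mouse 1, GF chow was highest for 44 members, without ConvR chow mice 1 and 2 for 38 with ConvR chow at 33, and without all 3 of these livers for 26 with ConvR chow at 41. ConvR HF/HS was lowest for 36 to 39 members in these 3 cases. In deposited TPM the sums ordered otherwise, at 3315 ± 280 in GF chow, 3234 ± 257 in ConvR HF/HS, 3092 ± 66.5 in ConvD chow, 2858 ± 9.87 in GF HF/HS and 2718 ± 301 in ConvR chow (SD, n = 3).

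**Figure D2:**
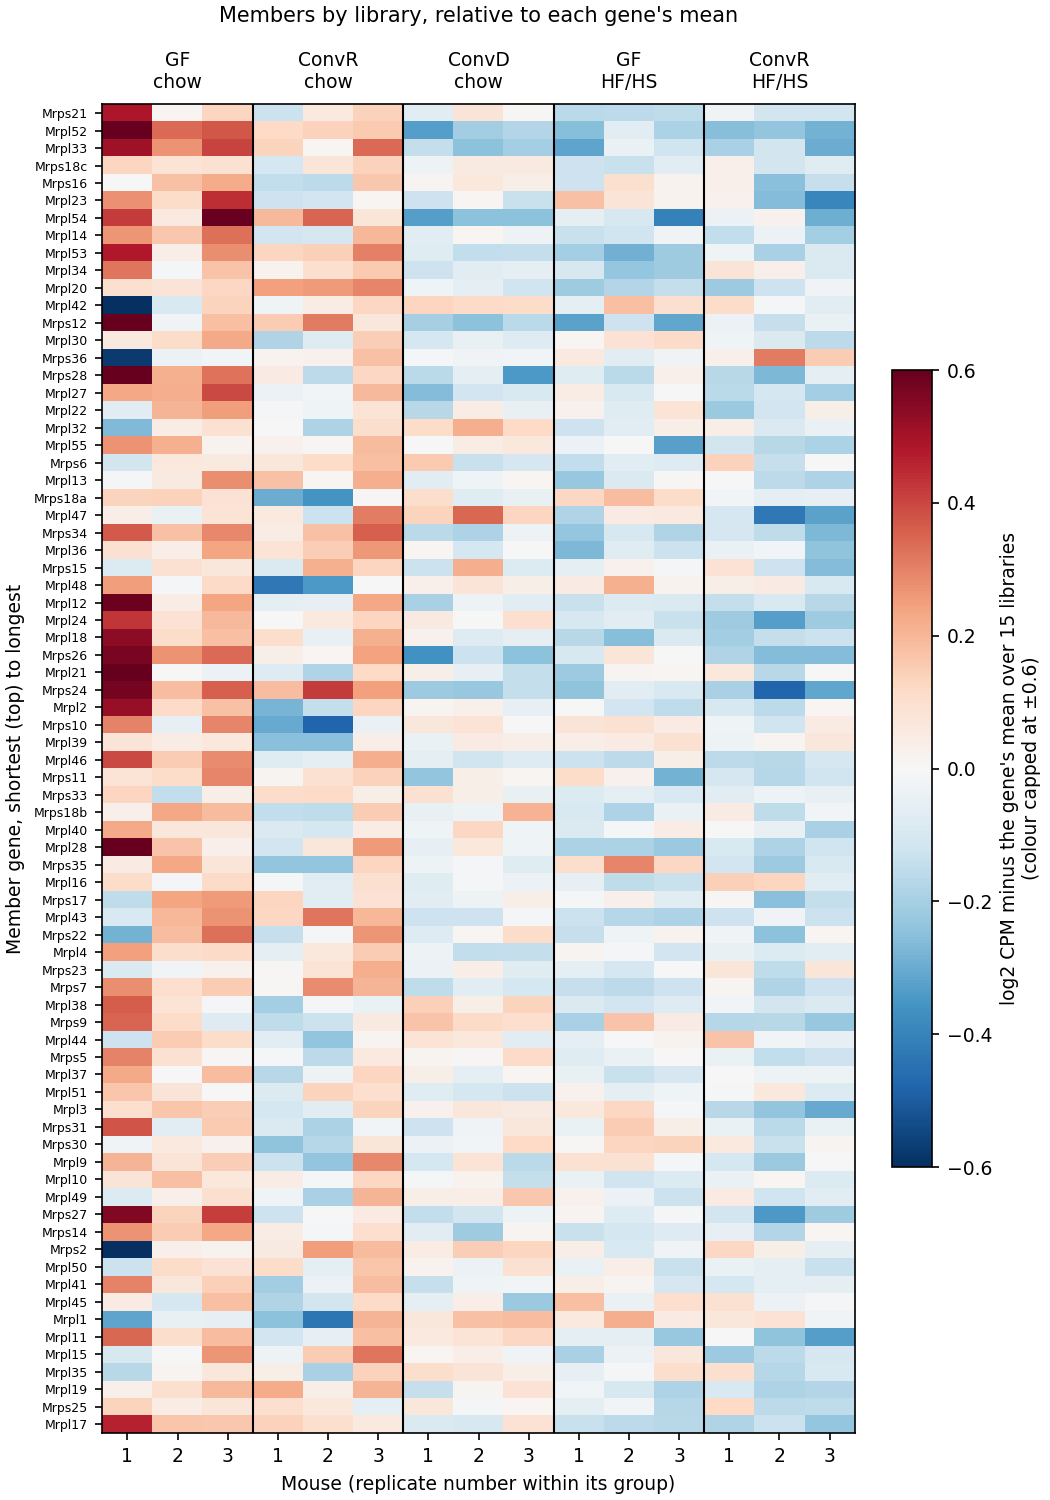
Level of each of the 76 members (rows, shortest gene at the top) in each of the 15 livers (columns, by group), as log2 CPM minus the gene's own mean, with colours limited at 0.6 either way. The 3 GF chow livers and ConvR chow mouse 3 show most members above their mean, and the HF/HS livers most below.

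Single livers differed within groups. The number of members above their own mean over all livers was 56, 61 and 70 in the GF chow mice, 33, 34 and 71 in the ConvR chow mice, 29, 37 and 33 in the ConvD mice, 22, 25 and 28 in the GF HF/HS mice and 26, 10 and 11 in the ConvR HF/HS mice. ConvR chow mouse 3, the 1 with 695 CPM of Saa2, thus lay with the GF chow mice, and its 2 group mates with the ConvD mice. Averaged over members, relative log2 CPM was 0.174, 0.090 and 0.169 in GF chow, −0.035, −0.018 and 0.146 in ConvR chow, and between −0.124 and −0.013 in the other 9 livers. Genes of like length moved less, between −0.059 and 0.078 over the 15 livers. In the livers where members were high, shorter genes were generally high: the Spearman rho of relative expression with length was −0.155, −0.172 and −0.341 in GF chow and −0.313 in ConvR chow mouse 3, against 0.078 to 0.277 in the 9 livers outside the GF chow and ConvR chow groups. In ConvR chow mice 1 and 2, whose members averaged below 0, this rho was 0.018 and −0.084. Genes of like length averaged 0.028 and 0.048 in these livers. The part of this length trend in the results was not tested beyond its removal as an alternative.

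**Figure D3:**
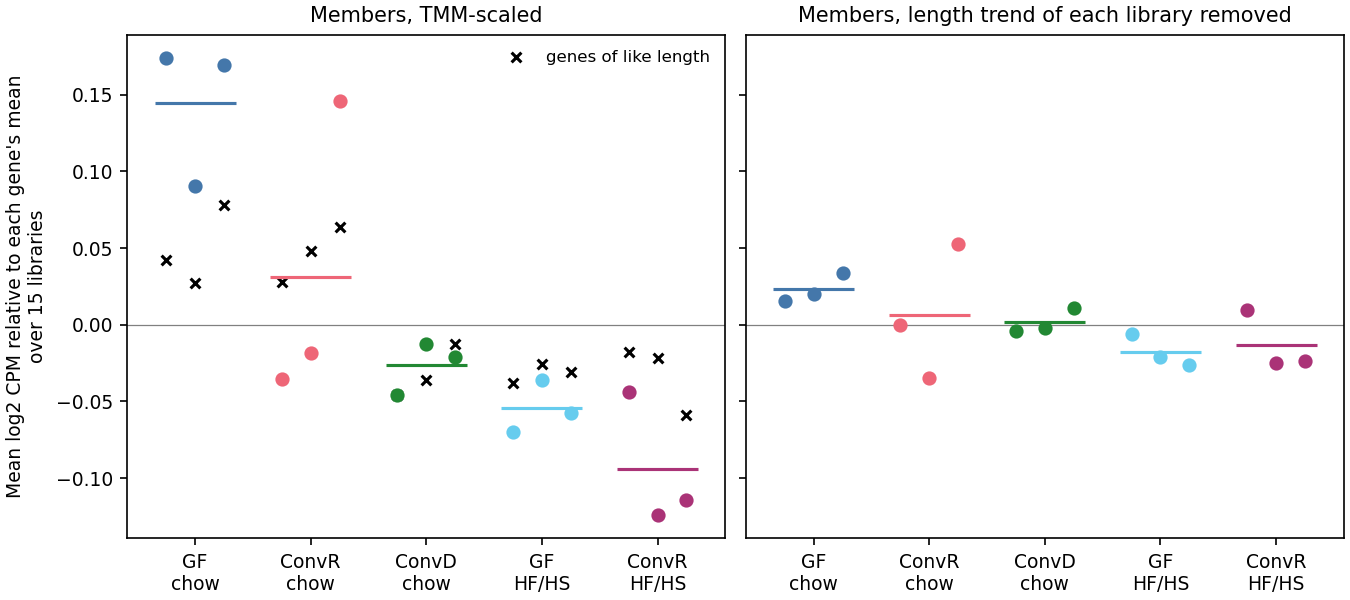
Mean over the 76 members of log2 CPM relative to each gene's own mean, for each liver (points, by group), with TMM scaling (left, crosses for genes of like length) and with the length trend removed (right). At left the 3 GF chow livers and ConvR chow mouse 3 lie at 0.090 to 0.174 and all others at −0.013 or below.

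With TMM scaling, diet in germ-free mice gave more member calls than the other comparisons, a rank it did not keep with the length trend removed or on TPM. On HF/HS compared with chow, 23 members fell and none rose in GF livers at a Benjamini-Hochberg adjusted p below 0.05 in edgeR's quasi-likelihood test (14 of 47 large and 9 of 29 small subunit members). Of all tested genes, 5.45% were called lower and 4.12% higher. Lower calls made up 30.3% of members, 8.84% of genes of like length and 12.4% of genes of like length and level. The falls were modest, with log2 fold changes from −0.73 to −0.28, which are changes of −39.5% to −17.5%. The ranges of the 3 mice did not overlap for 40 members that were lower and 1 that was higher (16.2% and 15.3% of all genes).

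Mrpl52, a mitochondria-specific large subunit protein, had 41.3, 28.2 and 28.9 CPM in GF chow and 18.6, 21.2 and 19.5 CPM in GF HF/HS. Every HF/HS value lay below every chow value, with GF chow mouse 1 far above its mates, and Mrpl52 fell by 0.73 ± 0.12 (SE, log2 scale, adjusted p = 0.00478). Mrpl33, of a family shared with bacteria, had 20.4, 17.3 and 19.0 CPM on chow and 11.5, 14.0 and 13.2 on HF/HS. Its groups were likewise separate, with a fall of 0.55 ± 0.11 (adjusted p = 0.00903). Mrpl53, also mitochondria-specific, had 28.2, 20.8 and 24.5 CPM on chow and 17.5, 16.6 and 17.4 on HF/HS, again without overlap, and fell by 0.51 ± 0.10 (adjusted p = 0.0101). These 3 calls held without any single liver of either group.

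Mrpl17, the longest member at 6712 bases, had 54.4, 44.3 and 44.2 CPM on chow and 35.9, 35.4 and 35.2 on HF/HS. The HF/HS livers were nearly equal and below all chow livers, and Mrpl17 fell by 0.42 ± 0.09 (adjusted p = 0.0113). Mrps34, a small subunit protein found only in mitochondria, had 33.1, 28.9 and 31.2 CPM on chow and 21.8, 24.0 and 22.6 on HF/HS. It fell by 0.45 ± 0.09 with separate groups (adjusted p = 0.0119). Mrps24, of the bacterial S3 family, had 31.5, 24.1 and 27.1 CPM on chow and 17.8, 20.2 and 19.8 on HF/HS, and fell by 0.52 ± 0.11 (adjusted p = 0.0127). Its groups did not overlap either. Mrpl18 fell by 0.46 ± 0.11 (adjusted p = 0.0191) and Mrpl20 by 0.28 ± 0.07 (adjusted p = 0.0236). Mrpl12 had 135, 92.2 and 105 CPM on chow and 81.5, 84.4 and 84.2 on HF/HS. GF chow mouse 1 was again the highest, and Mrpl12 fell by 0.41 ± 0.12 (adjusted p = 0.0457). Mrpl17 lost its call without GF HF/HS mouse 3 (adjusted p = 0.0505), Mrps24 without mouse 1 (0.059), and Mrps34 without mouse 1 or 3 (up to 0.054). Mrpl18 and Mrpl20 lost theirs without any of the 3 HF/HS mice (up to 0.083 and 0.092), and Mrpl12 without any of them or without GF chow mouse 1 or 3 (up to 0.142).

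The number of members called in GF mice changed with the libraries kept and with the length trend. Leaving out GF HF/HS mouse 1, 2 or 3 left 4, 6 or 4 members called lower, and leaving out GF chow mouse 1 left 10. The members' median log2 fold change was −0.210, −0.201, −0.176 and −0.190 in these 4 cases, against −0.190 with all livers. Fits without a liver have fewer samples. With the length trend removed, 2 were called lower, Mrpl17 at −0.55 (adjusted p = 0.0057) and Mrpl52 at −0.38 (adjusted p = 0.049), where 2.68% of all genes were called lower and 2.67% higher. On log2(TPM + 1), 4 were called lower and none higher (1.78% and 3.27% of all genes). Calls numbered 12, 7 and 4 among the shortest 25, middle 25 and longest 26 members, with median log2 fold changes of −0.277, −0.208 and −0.118. Summed hepatocyte markers were 121995 to 129245 CPM in GF HF/HS and 87276 to 101490 CPM in GF chow. Endothelial markers (6 of 6 tested) were 239 to 269 against 171 to 214 CPM, and Cela1 26.8 to 32.7 against 41.1 to 42.3. The part of these differences in the members' values was not tested.

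In ConvR mice, with TMM scaling, 11 members fell on HF/HS and none rose (7 large, 4 small subunit), and on TPM 10 of these 11 had log2 fold changes above 0. In the edgeR test 7.78% of all genes were called lower and 6.77% higher. Lower calls made up 14.5% of members, 10.8% of genes of like length and 11.7% of genes of like length and level. Log2 fold changes of the called members ran from −0.61 to −0.26. Member ranges were separate and lower for 25 members and separate and higher for 0 (17.1% and 15.2% of all genes).

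Mrpl20 had 36.5, 36.7 and 37.7 CPM in ConvR chow and 26.4, 28.1 and 30.3 CPM in ConvR HF/HS. The chow livers were nearly equal and all above the HF/HS livers, and Mrpl20 fell by 0.39 ± 0.07 (adjusted p = 0.00226). Mrps24 had 24.0, 28.3 and 25 CPM on chow and 18.4, 15.1 and 17.0 on HF/HS. It fell by 0.61 ± 0.11 with separate groups (adjusted p = 0.00245), and both calls held without any single liver of the 2 groups. Mrps34 had 26.4, 28.9 and 32.8 CPM on chow and 23.8, 23.1 and 21.2 on HF/HS, and fell by 0.37 ± 0.09 (adjusted p = 0.0156). Mrpl24, at the exit of the peptide tunnel, fell by 0.31 ± 0.08 (adjusted p = 0.024). Mrpl33 fell by 0.37 ± 0.11 (adjusted p = 0.0326), Mrpl19 by 0.31 ± 0.09 (adjusted p = 0.0356), Mrpl43 by 0.31 ± 0.09 (adjusted p = 0.0404) and Mrpl52 by 0.40 ± 0.12 (adjusted p = 0.0406). The groups overlapped for 1 of the 11, Mrps7. Mrps34 lost its call without ConvR HF/HS mouse 3 (adjusted p = 0.056) and Mrps24 without ConvR chow mice 1 and 2 together (0.064). Mrpl24, Mrpl33, Mrpl19, Mrpl43 and Mrpl52 each lost theirs without any 1 of 4 to 6 of the livers compared, with adjusted p up to 0.0995, 0.105, 0.117, 0.145 and 0.0983.

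In this comparison the sign of a fold change depended on the scaling, for all genes as for members. On log2(TPM + 1), 34 members were called higher and none lower, where 47.1% of all genes were called higher and 2.17% lower, and Mrps24 alone of the 11 was below 0, at −0.21. Without normalization factors 7 members were called higher and 1 lower (22.2% and 3.97% of all genes), and the 11 were all below 0, with Mrps24 called at −0.41 (adjusted p = 0.0107) and the other 10 not called. Once the length trend was removed, Mrpl39, Mrpl48, Mrps10 and Mrps18a were called higher and Mrpl17, Mrpl19, Mrps24 and Mrps34 lower (6.74% higher and 7.12% lower of all genes). Leaving out ConvR chow mice 1 and 2 kept 1 liver of that group. The members' median log2 fold change was then −0.220 with TMM, against −0.117 with all livers. It was −0.206 without GF chow mouse 1 as well. Without ConvR chow mouse 3 the TMM count was 5 higher and 4 lower. It was 3 to 6 without any 1 liver of ConvR HF/HS, of GF HF/HS, or of ConvR chow mouse 1 or 2, and 7 without ConvD mouse 2. The members' median was −0.144, −0.106 and −0.116 without ConvR HF/HS mouse 1, 2 or 3, and −0.080 without ConvR chow mouse 3. Summed endothelial markers were 236 to 280 CPM in ConvR HF/HS and 200 to 226 CPM in ConvR chow, and neutrophil markers 1.43 to 2.50 against 5.07 to 49.9 CPM. The part of either in these values was not tested.

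In ConvD mice, colonized for 4 weeks, 12 members fell compared with GF mice on chow, 6 in each subunit, and none rose. The background was 3.34% of genes called lower and 2.26% called higher. Lower calls made up 15.8% of members, 5.33% of genes of like length and 7.09% of genes of like length and level. Called log2 fold changes ran from −0.79 to −0.31, changes of −42.3% to −19.1%. Ranges were separate and lower for 32 members and separate and higher for 4 (14.7% and 14% of all genes).

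Mrpl52 had 17.7, 19.3 and 19.8 CPM in ConvD livers, all below the GF chow values given above, and fell by 0.79 ± 0.12 (adjusted p = 0.00633). Mrps26, a mitochondria-specific small subunit protein, had 20.1, 16.3 and 17.2 CPM in GF chow and 10.5, 12.3 and 11.4 in ConvD livers. The groups were separate and the fall was 0.64 ± 0.10 (adjusted p = 0.00637). Both calls held without any single liver of the 2 groups. Mrpl33 had 13.0, 12.1 and 12.4 CPM in ConvD livers and fell by 0.60 ± 0.11 (adjusted p = 0.0101). Mrps24 had 18.2, 18.0 and 19.1 CPM there and fell by 0.58 ± 0.11 (adjusted p = 0.0119). The ConvD livers were close to each other and below every GF chow liver for both. Mrpl27 fell by 0.44 ± 0.08 (adjusted p = 0.0134), Mrps28 by 0.62 ± 0.13 (adjusted p = 0.0198) and Mrpl54 by 0.65 ± 0.14 (adjusted p = 0.0218). Mrps27, a protein with pentatricopeptide repeats, had 42.3, 31.5 and 38.3 CPM in GF chow and 25.9, 26.6 and 28.1 in ConvD livers, and fell by 0.48 ± 0.10 without overlap (adjusted p = 0.0206). Mrpl33 lost its call without ConvD mouse 2 (adjusted p = 0.051), Mrps24 without ConvD mouse 1 or 2 (up to 0.058), Mrpl27 without mouse 1 (0.070) and Mrps28 without mouse 1 or 3 (up to 0.076). Mrpl54 and Mrps27 lost theirs without any 1 ConvD mouse or GF chow mouse 1 (up to 0.0855 for both).

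Leaving out ConvD mouse 1, 2 or 3 left 3, 4 or 5 members called, and leaving out GF chow mouse 1 left 7. The members' median log2 fold change was −0.147, −0.161, −0.156 and −0.136 in these 4 cases, against −0.148 with all livers. With the length trend removed 5 were called lower, 4 of the 12 and Mrpl17, which was not among them. The 4 were Mrps24 at −0.40 (adjusted p = 0.046), Mrps26 at −0.46 (adjusted p = 0.017), Mrpl52 at −0.45 (adjusted p = 0.04) and Mrps27. Of all genes, 1.35% were then called lower and 0.97% higher. On log2(TPM + 1), 4 were called lower and none higher (0.857% and 6.57% of all genes). Summed B cell markers (4 of 4 tested) were 4.25 to 5.10 CPM in ConvD and 2.34 to 3.48 CPM in GF chow livers, cholangiocyte markers (5 of 5) 38.5 to 41.7 against 47.9 to 81.3, and Cela1 18.6 to 20.4 against 41.1 to 42.3, and their part in the members' values was not tested.

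**Figure D4:**
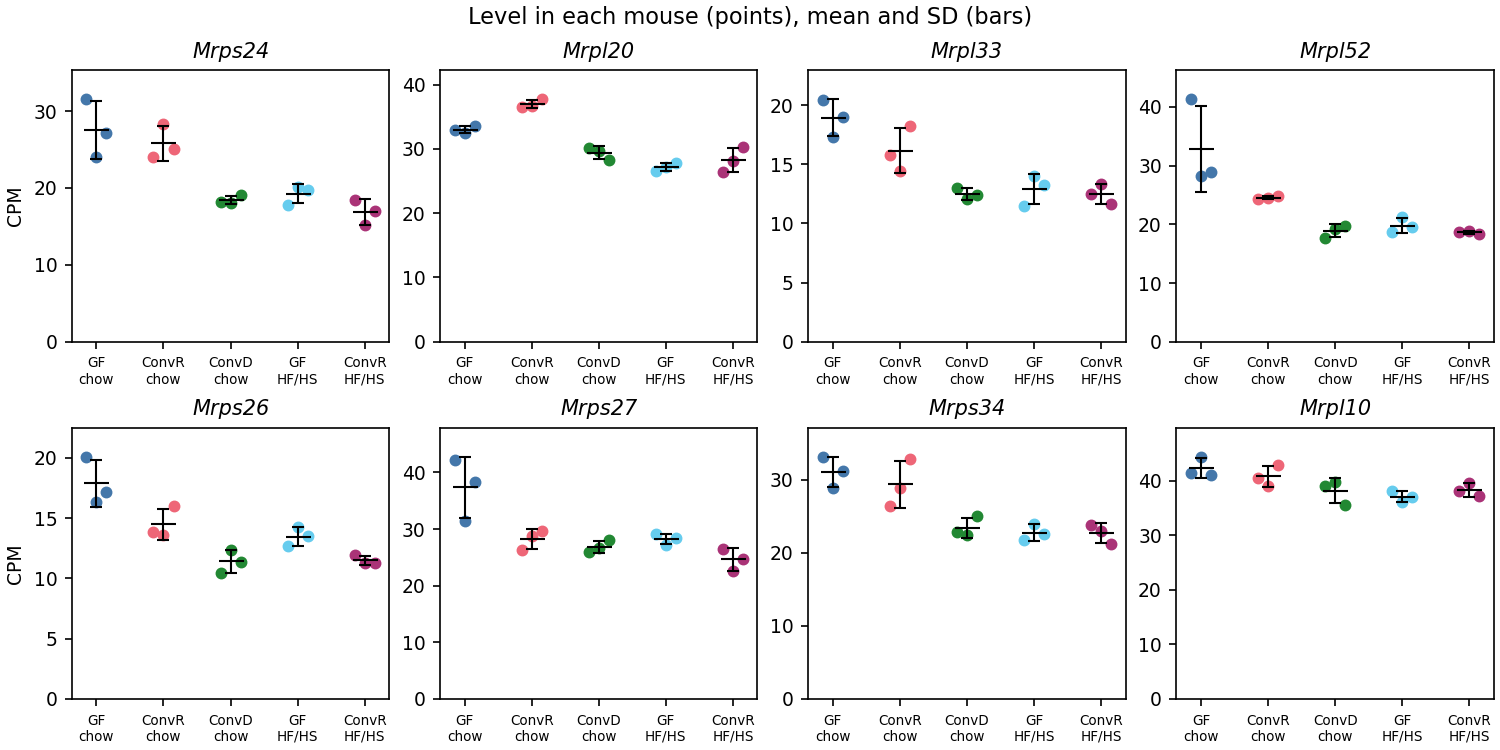
CPM in each mouse (points) with group mean and SD (n = 3) in the 5 groups for Mrps24, Mrpl20, Mrpl33, Mrpl52, Mrps26, Mrps27, Mrps34 and Mrpl10. GF chow is highest for 6 of the first 7 and ConvR chow for Mrpl20, while Mrpl10, among the steadiest members, stays between 35.5 and 44.4 CPM.

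Between ConvR and GF mice on chow, 2 members fell and none rose, both of the small subunit (2.17% of all genes were called lower and 2.56% higher). This was 2.63% of members, against 2.71% of genes of like length. Mrps10, of a family shared with bacteria, had 29.0, 22.7 and 28.9 CPM in GF chow and 19.1, 16.9 and 22.9 in ConvR chow. The groups overlapped slightly, and Mrps10 fell by 0.45 ± 0.11 (adjusted p = 0.0382). Mrps27 had 26.3, 28.8 and 29.7 CPM in ConvR chow, below every GF chow liver, and fell by 0.40 ± 0.10 (adjusted p = 0.04). Mrps18a, which missed the threshold (adjusted p = 0.0547), had 26.6, 26.6 and 25.7 CPM in GF chow and 19.7, 18.9 and 24.3 in ConvR chow. Ranges were separate and lower for 11 members and separate and higher for 4 (9.75% and 9.82% of all genes). The count was 14 without ConvR chow mouse 3, 4 without GF chow mouse 2, and 0 without ConvR chow mouse 1 or 2 or GF chow mouse 1. Both Mrps10 and Mrps27 lost their calls without ConvR chow mouse 1 or 2 or GF chow mouse 1 or 3, with adjusted p up to 0.164 and 0.151. The count was also 0 without ConvD mouse 1 or 2 or any GF HF/HS liver, which are not compared here but enter the joint fit, and 1 without ConvD mouse 3, ConvR HF/HS mouse 1 or GF chow mouse 3. The members' median log2 fold change was −0.147, −0.010 without ConvR chow mice 1 and 2, and 0.026 without GF chow mouse 1 as well. After removal of the length trend no member was called lower, and Mrpl20 was called higher at 0.30 (adjusted p = 0.035), where 1.9% of all genes were called lower and 2.81% higher. On log2(TPM + 1), 12 were called lower and none higher (6.29% and 1.3% of all genes). Summed Kupffer cell markers (7 of 7 tested) were 390 to 476 CPM in ConvR chow and 302 to 387 CPM in GF chow, and Cela1 13.6 to 32.5 against 41.1 to 42.3. Their part in the members' values was not tested.

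Between ConvD and ConvR mice on chow, Mrpl20 and Mrps24 fell and no member rose (3.24% of all genes were called lower and 2.2% higher). Mrpl20 had 30.2, 29.6 and 28.2 CPM in ConvD livers, all below the ConvR chow livers, and fell by 0.33 ± 0.07 (adjusted p = 0.0168). Mrps24 also had separate groups and fell by 0.48 ± 0.11 (adjusted p = 0.0247). Mrps34 came next at −0.32 and was not called (adjusted p = 0.0539). Ranges were separate and lower for 16 members and separate and higher for 5 (15% and 15.2% of all genes). No member was called without ConvR chow mouse 1 or 2 alone, or without any 1 ConvD liver. Without ConvR chow mice 1 and 2 together, which left 1 liver of that group, the members' median log2 fold change was −0.160. It was −0.049 with all livers and 0.002 without ConvR chow mouse 3. Without ConvR chow mouse 3, 5 were called higher and 3 lower, and without GF chow mouse 1, 2 or 3, 11, 4 or 3 were called. On log2(TPM + 1), 23 were called higher and none lower (28.5% and 1.65% of all genes). Mrpl48 and Mrps10 were called higher and Mrps24 lower with the length trend removed (1.54% and 3.2% of all genes). Summed hepatocyte markers were 93042 to 110913 CPM in ConvD and 53715 to 90496 CPM in ConvR chow livers. Neutrophil markers were 1.08 to 2.66 against 5.07 to 49.9 and cholangiocyte markers 38.5 to 41.7 against 45.3 to 146. B cell markers were 4.25 to 5.10 against 1.81 to 2.89, and T and NK cell markers (4 of 5 tested) 2.40 to 3.72 against 1.45 to 2.23. The part of these in the members' values was not tested.

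On HF/HS, no member differed between ConvR and GF mice in edgeR's quasi-likelihood test, in DESeq2, in limma-voom or on log2(TPM + 1). Of all genes 0.889% were called higher and 0.744% lower in edgeR (6.01% and 0.396% on TPM), and 5 members had an unadjusted p below 0.05, 1 higher and 4 lower. Mrpl3, a large subunit protein of a family shared with bacteria, had the smallest p, with 13.7, 14.3 and 13.0 CPM in GF and 11.7, 11.1 and 10.6 in ConvR livers. These groups were separate, at a log2 fold change of −0.30 ± 0.08 (adjusted p = 0.0952). Mrps35 had 19.0, 21.7 and 19.3 CPM in GF and 16.3, 15.2 and 16.6 in ConvR livers, also separate, at −0.32 ± 0.10 (adjusted p = 0.137). Ranges were separate and lower for 9 members and separate and higher for 6 (14.7% and 12.7% of all genes). Mrpl23 followed at −0.29 ± 0.11 (adjusted p = 0.218). Summed hepatocyte markers were 86271 to 93574 CPM in ConvR HF/HS and 121995 to 129245 CPM in GF HF/HS. Exocrine pancreas markers (1 of 5 tested) were 8.46 to 16.1 against 26.8 to 32.7 CPM. The part of either in the members' values was not tested.

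Whether diet acted differently in ConvR and GF mice was tested as an interaction, which called 0 members and 0% of all genes in edgeR, and 0 members in DESeq2 and limma-voom. At an unadjusted p below 0.05 there were 3 members, all above 0: Mrpl2 at 0.38 ± 0.16 (adjusted p = 0.36), Mrpl16 at 0.25 ± 0.11 (adjusted p = 0.364) and Mrps10 at 0.35 ± 0.16 (adjusted p = 0.372). On log2(TPM + 1), 17 members were called above 0 and none below (9.54% and 0.21% of all genes). The greater count of falls in GF than in ConvR mice is thus not shown to be a difference between them.

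The comparisons share groups: GF chow enters the ConvR, ConvD and diet comparisons, and ConvR chow likewise. Of the 76 members, 26 were called in at least 1 comparison, all lower, and 50 in none. Mrps24 was called in 4, and Mrpl20, Mrpl33, Mrpl52, Mrps26, Mrps27 and Mrps34 in 3. Members of the same particle ranged from variable to steady. The SD of log2 CPM over the 15 livers was largest for Mrpl52 (0.337), Mrps24 (0.307) and Mrps12 (0.306), the last a protein of the decoding centre, and smallest for Mrps33 (0.086), Mrpl10 of the stalk base (0.090) and Mrpl51 (0.091). Without GF chow mouse 1 the SD was 0.240 for Mrpl52, 0.273 for Mrps24 and 0.189 for Mrps12. Mrpl10 had 41.4, 44.4 and 41.0 CPM in GF chow and 38.1, 36.1 and 37.0 in GF HF/HS, and was called in no comparison. Mrpl11, also of the stalk base, the tunnel protein Mrpl23, the membrane anchor Mrpl45 and the disease genes Mrps16, Mrps22 and Mrpl44 were likewise never called.

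As a group, the members' median log2 fold change was below 0 in GF mice on HF/HS (−0.190, with 67 of 76 below 0), in ConvD against GF mice (−0.148, 65 of 76) and in ConvR against GF mice on chow (−0.147, 59 of 76), with TMM scaling. Without normalization factors these medians were −0.212, −0.095 and −0.194, and on TPM −0.134, −0.019 and −0.271, the second of these close to 0. Genes of like length had medians of −0.103, −0.098 and −0.043, genes of like length and level −0.120, −0.106 and −0.057, and all tested genes −0.009, −0.008 and −0.003. With the length trend removed, the members' medians were −0.031, −0.002 and −0.049. For diet in ConvR mice the median was −0.117 with TMM but 0.082 without normalization factors and 0.263 on TPM, and for ConvD against ConvR it was −0.049, 0.050 and 0.209. For ConvR against GF mice on HF/HS it was −0.040, 0.133 and 0.163. The median of all genes moved with these scalings, to 0.186 and 0.296 for diet in ConvR mice, 0.096 and 0.209 for ConvD against ConvR, and 0.164 and 0.157 for ConvR against GF on HF/HS. Relative to all genes, the members' median for diet in ConvR mice was −0.10 with TMM, −0.10 without factors and −0.03 on TPM.

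**Figure D5:**
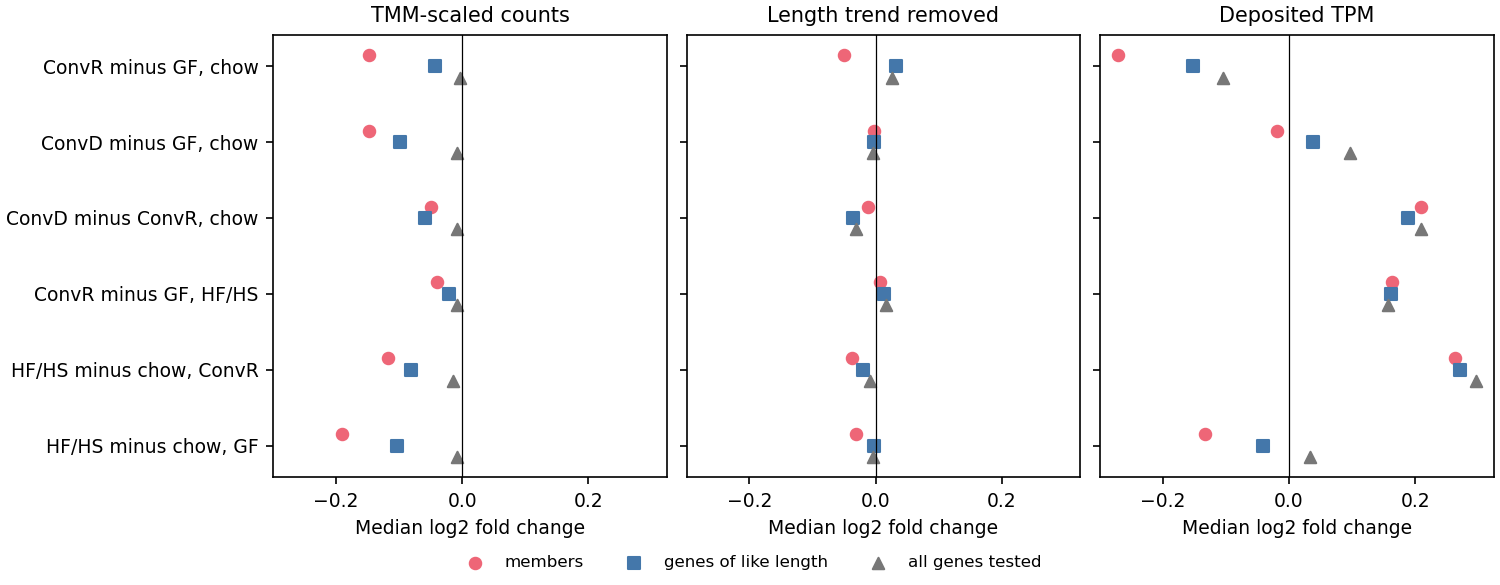
Median log2 fold change in 6 comparisons for the members (circles), genes of like length (squares) and all tested genes (triangles), with TMM scaling, with the length trend removed and in deposited TPM. With TMM all member medians lie below 0, from −0.190 to −0.040, while on TPM those for diet in ConvR mice, ConvD against ConvR and ConvR against GF on HF/HS lie above 0.

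Length also ordered the changes among the members. The Spearman rho of log2 fold change with length over the 76 members was 0.317 for diet in GF mice, 0.322 for ConvD against GF and 0.191 for diet in ConvR mice, against 0.304, 0.302 and 0.232 over all genes. For ConvR against GF on HF/HS it was −0.101. Of the 50 calls over all comparisons, 11 held with the length trend removed.

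Other genes of mitochondrial translation were examined as lists. Of 7 mitoribosomal proteins with other kinds of symbol, 4 fell in GF mice on HF/HS, 4 in ConvD against GF mice, 1 in ConvR mice on HF/HS and none in the other comparisons, and none rose (5.45%, 3.34% and 7.78% of all genes fell in the first 3). Gadd45gip1, of the large subunit, had 48.7, 30.7 and 34.4 CPM in GF chow and 23.5, 26.2 and 24.6 in GF HF/HS, a fall of 0.61 (adjusted p = 0.0201) between separate groups. Mrp63 fell by 0.52 (adjusted p = 0.0114), Aurkaip1 by 0.50 (adjusted p = 0.0153) and Chchd1 by 0.37 (adjusted p = 0.0231) in that comparison. With the length trend removed Gadd45gip1 (adjusted p = 0.042) and Mrp63 (adjusted p = 0.016) kept their calls, and Aurkaip1 (adjusted p = 0.072) and Chchd1 (adjusted p = 0.573) lost them. Gadd45gip1, Aurkaip1 and Chchd1 lost these calls without any 1 GF HF/HS mouse (up to 0.078, 0.059 and 0.081), Chchd1 also without GF chow mouse 1. Mrp63 lost its call without GF HF/HS mouse 1 (0.054).

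Among 15 translation factors, 3 fell in GF mice on HF/HS: Tsfm, elongation factor Ts, by 0.74 (adjusted p = 0.0134), the peptide deformylase Pdf by 0.39 (adjusted p = 0.0153) and the formyltransferase Mtfmt by 0.45 (adjusted p = 0.0201). Of all genes, 5.45% fell there. Tsfm lost that call without GF HF/HS mouse 1 or 2 (up to 0.061), Pdf without mouse 1 or 3 (up to 0.070) and Mtfmt without any 1 of them (up to 0.084). Pdf also lost it with the length trend removed (adjusted p = 0.0545). In ConvR mice on HF/HS the elongation factor G genes Gfm1 (0.40, adjusted p = 0.006) and Gfm2 (0.29, adjusted p = 0.0423) rose (6.77% of all genes rose there). Gfm2 lost that call without ConvR HF/HS mouse 1 or 2 or ConvR chow mouse 1 or 2 (up to 0.162). Gfm2 also fell in ConvR against GF on chow (−0.35, adjusted p = 0.0421), lost without ConvR chow mouse 1 or 2 or GF chow mouse 1 or 3 (up to 0.177). Tsfm fell in ConvD against GF (−0.67, adjusted p = 0.0271), lost without any 1 ConvD mouse or GF chow mouse 1 (up to 0.099). Of 24 ribosome assembly and quality genes, 5 fell in GF mice on HF/HS (5.45% of all genes), with Wbscr16 first at −0.59 (adjusted p = 0.0092). In each of ConvR against GF on chow, ConvD against GF and diet in ConvR mice 1 fell, where 2.17%, 3.34% and 7.78% of all genes fell. Of 21 mitochondrial tRNA synthetases, 4 fell in GF mice on HF/HS, among them Cars2 by 0.65 (adjusted p = 0.0079), with 2 in ConvD against GF and 1 in ConvR mice on HF/HS. The shares of all genes called lower were 5.45%, 3.34% and 7.78%. Lars2 fell by 2.48 with diet in GF mice (adjusted p = 0.0437) and by 2.75 with diet in ConvR mice (adjusted p = 0.0207). Each call was lost without any 1 HF/HS mouse or chow mouse 1 of its groups (up to 0.132 and 0.191). The call in GF mice was also lost without GF chow mouse 3, and with the length trend removed (adjusted p = 0.0549). Of 9 genes listed for mitochondrial transcription 1 fell, in ConvR against GF on chow (2.17% of all genes): Polg2, which encodes the accessory subunit of the mitochondrial DNA polymerase, at −0.76 (adjusted p = 0.0331). It lost its call without ConvR chow mouse 1 or 2 or GF chow mouse 1 or 3 (up to 0.147).

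Of 9 regulators of nuclear genes for mitochondria, 2 rose and 1 fell with diet in GF mice, 2 rose in ConvD against GF, 1 in ConvD against ConvR and 1 with diet in ConvR mice. The shares of all genes called higher were 4.12%, 2.26%, 2.2% and 6.77%, and 5.45% were called lower with diet in GF mice. Gabpa and Yy1 encode factors that bind the ETS and YY1 motifs described above, and neither was called with diet in ConvR mice. Gabpa had 32.5, 36.1 and 37.4 CPM in GF chow, 43.7, 48.5 and 51.6 in GF HF/HS and 50.8, 48.4 and 46.3 in ConvD livers. Its 3 GF chow livers were below all of these, and Gabpa rose by 0.44 ± 0.09 with diet in GF mice (adjusted p = 0.0102) and by 0.46 ± 0.09 in ConvD against GF mice (adjusted p = 0.0133; 0.052 with the length trend removed). It also rose in ConvD against ConvR mice, by 0.40 (adjusted p = 0.0235). The 3 Gabpa calls were lost without GF HF/HS mouse 3 (0.055), without ConvD mouse 1 or 2 (up to 0.066) and without ConvD or ConvR chow mouse 1 or 2 (up to 0.126). Yy1 had 25.1, 22.5 and 21.2 CPM in GF chow and 29.8, 34.1 and 33.4 in GF HF/HS, separate groups, and rose by 0.50 ± 0.09 (adjusted p = 0.00651), and by 0.35 ± 0.09 in ConvD against GF mice (adjusted p = 0.0385), a call lost without any 1 ConvD mouse or GF chow mouse 2 or 3 (up to 0.119). Myc fell with diet in GF mice by 2.83 ± 0.69 (adjusted p = 0.023), from 26.0, 6.68 and 3.87 CPM, with GF chow mouse 1 far above the others, to 2.03, 1.21 and 1.80. That call was lost without GF chow mouse 1 or any 1 GF HF/HS mouse (up to 0.0974). Ppargc1b, a coactivator, rose in ConvR mice on HF/HS by 1.24 ± 0.32 (adjusted p = 0.019), lost without ConvR HF/HS mouse 1 or ConvR chow mouse 2 (up to 0.0868). Over the small lists, 39 calls were made, of which 24 held with the length trend removed and 4 held without any single liver of the groups compared.

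Cytosolic ribosomal protein genes, also short, fell in greater number in 5 of the 6 comparisons: of 82 tested, 72 fell with diet in ConvR mice, 45 with diet in GF mice, 31 in ConvD against GF, 11 in ConvR against GF on HF/HS and 9 in ConvD against ConvR, with 1 in ConvR against GF on chow. Their medians were −0.498, −0.341, −0.311, −0.274, −0.201 and −0.115 in that order, against −0.117, −0.190, −0.148, −0.040, −0.049 and −0.147 for the mitochondrial members. Of all genes, 7.78%, 5.45%, 3.34%, 0.744%, 3.24% and 2.17% were called lower in the same order. With the length trend removed 52 of the cytosolic genes still fell with diet in ConvR mice, and 17 on TPM (7.12% and 2.17% of all genes). Of 79 respiratory chain subunit genes, 13 fell with diet in GF mice, 11 in ConvD against GF and 3 in ConvR against GF on chow (5.45%, 3.34% and 2.17% of all genes). With diet in ConvR mice 2 of them rose and 1 fell (6.77% and 7.78% of all genes). On TPM 65 rose and none fell there (47.1% and 2.17% of all genes). No test of the difference between lists was made.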

How the data were processed

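Polyadenylated RNA from 15 livers was sequenced. Per the submitters' processing notes, Bowtie2, RSEM 1.2.23 and the build mm9 were used, and the authors deposited expected counts, TPM and FPKM for each gene, of which the FPKM were not analysed. The expected counts are RSEM estimates, fractional in every library for 11 of the 76 members. Gene length and effective length in the deposited tables differed by at most 0.01 bases, so that no fragment length entered the TPM. Whether counting used strand is not given in the sources used here, so reads of overlapping antisense genes cannot be told apart from members' reads.

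Groups came from the labels. Expected counts were rounded and fitted with edgeR 4.0.16 (R 4.3.3): filterByExpr with a minimum count of 10 (12368 genes), TMM factors, 1 mean for each of the 5 groups, all 15 libraries, 10 residual degrees of freedom and the two-sided quasi-likelihood F test, with calls where the Benjamini-Hochberg adjusted p was below 0.05. The biological coefficient of variation was 0.149. Each standard error was derived from the log2 fold change and F. A prior count of 2 entered log2 CPM. TPM were tested with limma 3.58.1 on log2(TPM + 1), which understates changes of low genes. Other alternatives were DESeq2 1.42.0, limma-voom, other filters, no normalization factors, each comparison's groups alone, a replicate block, each library left out, and removal of each library's lowess trend of expression on length. The fit was tested on simulated data.

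Genes of like length lay between the members' 10th and 90th length percentiles. The members, lists and comparisons were chosen with earlier results of these data known, and like length with like level was added after the data were seen. Named members were, per comparison, up to 8 called each way with the smallest adjusted p, or the 3 smallest p where fewer than 3 were called, the 5 highest and lowest in TPM, the 3 most and least variable, and members of known role. Up to 3 genes of each other list were named in each comparison described.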

Additional observations from a re-analysis of the deposited data

How the results depend on the processing

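The counts of members called changed with the length trend, the scaling and single livers. For ConvR against GF on chow, 2 in the report, they were 6 with DESeq2's Wald test, 1 with limma-voom, 12 on TPM, 0 with the compared groups alone, 1 (higher) with the length trend removed, 0 without ConvR chow mice 1 and 2, 0 without GF chow mouse 1 as well, and 0 to 14 without single libraries. For ConvD against GF, 12 in the report, they were 4 on TPM, 0 alone, 5 with the trend removed and 3 to 18 without single libraries. For ConvD against ConvR, 2 in the report, a stricter filter gave 6, the Wald test 6, TPM 23 (all higher), the groups alone 0 and removal of the trend 3 (2 higher, 1 lower). Omission of ConvR chow mice 1 and 2 gave 0, of GF chow mouse 1 as well 0, and of single libraries 0 to 11. Without ConvR chow mouse 3 it was 8 (5 higher, 3 lower), and without normalization factors 2, 1 each way. For ConvR against GF on HF/HS, 0 in the report, it was 2 (higher) without normalization factors, 2 (lower) without ConvR chow mice 1 and 2 and GF chow mouse 1, and 0 to 0 without single libraries. For diet in ConvR mice, 11 in the report and all lower, it was 8 without normalization factors (7 higher, 1 lower) and 34 on TPM (all higher). It was 6 without a filter, 3 alone, 6 with a replicate block and 2 without ConvR chow mice 1 and 2. Without ConvR chow mouse 3 it was 9 (5 higher, 4 lower), and without single libraries 3 to 16. For diet in GF mice, 23 in the report, it was 4 on TPM, 0 alone, 2 with the trend removed and 4 to 25 without single libraries. The interaction, 0 in the report, gave 17 on TPM (all above 0) and 0 to 0 without single libraries. On TPM the diet changes in ConvR mice turned to 0.010 for Mrpl20, 0.030 for Mrps34, 0.083 for Mrpl24, 0.032 for Mrpl33, 0.070 for Mrpl19, 0.089 for Mrpl43, 0.0019 for Mrpl52, 0.11 for Mrpl17, 0.064 for Mrps26 and 0.13 for Mrps7. Members highest in GF chow, 52 in the report, were 26 without ConvR chow mice 1 and 2 and GF chow mouse 1, a setting chosen after seeing the data. Fits of the compared groups alone or with livers left out have fewer samples, and shares of all genes called in them are not given. The cause of the other shifts was not tested. Of the 50 calls of single members, all lower, 50 held with a stricter filter, 47 with DESeq2 size factors, 47 with limma-voom, 47 with the Wald test, 42 without a filter, 40 with the replicate block, 33 without normalization factors, 11 with the trend removed, 10 on TPM and 3 with the groups alone, and 7 held without any single liver of the compared groups. Deviations of same-numbered mice from their group means correlated between −0.232 and 0.245. Mice of different numbers were not compared, so these values cannot decide whether replicate numbers pair the mice. Every member had at least 63 expected counts in each library.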

Other observations

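In GF chow mouse 1, single members departed from the other 14 livers in opposite directions. These members were picked after their values were seen. Mrps2 had 17.0 CPM there and 29.6 to 37.5 CPM in the others, Mrpl42 had 18.9 against 30.7 to 37.2, and Mrps36, whose protein is now placed in the α-ketoglutarate dehydrogenase complex, had 4.34 against 6.2 to 8.11. In the same liver Mrps12 was highest of all 15 at 50.3 CPM, as were Mrpl12 at 135 and Mrpl52 at 41.3.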
